A study of Homo sapiens and Mus musculus with 10 samples.

Results

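The zinc finger genes of chromosome 19 were followed through open chromatin maps of 4 human cell lines. The set held the 240 protein-coding genes of GENCODE release 44 that lie on chromosome 19 and have a symbol made of ZNF and digits only, out of 19970 protein-coding genes on the autosomes and X. The rule used names and position, and no measured value. Bulk ATAC-seq, in which the Tn5 transposase cuts accessible DNA and leaves sequencing adapters there, was done on 8 human libraries, 2 from each line, and no treatment or genetic change was named for any of them. K562 is an erythroleukaemia line, GM12878 a line of B cells transformed by Epstein-Barr virus, HFF1 a culture of foreskin fibroblasts, and HEK293T an embryonic kidney line with the large T antigen of SV40. A mouse line of the series was not used, since the genes are human.

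Most of the genes encode proteins with a row of C2H2 zinc fingers, which read DNA, and many also carry a KRAB domain. The KRAB domain binds TRIM28, which brings in the methyltransferase SETDB1 and HP1 proteins and leaves the bound DNA in chromatin marked by trimethylated lysine 9 of histone H3. Many KRAB zinc finger proteins bind transposable elements, and the genes arose by repeated tandem duplication, so neighbours on chromosome 19 are often close relatives. The same heterochromatin mark is known to cover the 3′ ends of many of these genes in dividing cells, while their promoters can stay open.

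Promoter sequences are shown for 5 members of the large family on the short arm near the centromere, because closely alike sequences there had different calls in the 4 lines. Each is the 250 bases before the RefSeq start site on GRCh38, read 5′ to 3′ on the strand of the gene, and capitals mark CpG dinucleotides. ZNF493 and ZNF91 had a promoter peak in all 8 libraries, ZNF492 only in the HFF1 libraries, ZNF257 only in the K562 libraries and ZNF208 in none.
ZNF493, chr19:21396883-21397132, plus strand: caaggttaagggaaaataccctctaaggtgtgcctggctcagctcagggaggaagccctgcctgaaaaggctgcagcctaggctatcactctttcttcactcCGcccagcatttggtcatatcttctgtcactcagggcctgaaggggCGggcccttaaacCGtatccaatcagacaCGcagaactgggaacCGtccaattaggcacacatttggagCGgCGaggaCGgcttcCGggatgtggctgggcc
ZNF91, chr19:23395472-23395721, minus strand: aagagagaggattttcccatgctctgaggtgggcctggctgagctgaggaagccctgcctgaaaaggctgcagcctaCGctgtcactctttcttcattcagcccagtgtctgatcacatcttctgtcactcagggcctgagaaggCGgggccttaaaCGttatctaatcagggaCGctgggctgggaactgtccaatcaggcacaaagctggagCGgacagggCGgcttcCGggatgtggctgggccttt
ZNF492, chr19:22634074-22634323, plus strand: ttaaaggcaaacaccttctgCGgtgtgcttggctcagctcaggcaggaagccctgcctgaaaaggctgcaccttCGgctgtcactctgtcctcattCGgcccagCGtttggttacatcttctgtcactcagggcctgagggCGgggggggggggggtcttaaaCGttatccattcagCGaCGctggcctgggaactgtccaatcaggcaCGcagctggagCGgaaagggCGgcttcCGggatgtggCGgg
ZNF257, chr19:22052234-22052483, plus strand: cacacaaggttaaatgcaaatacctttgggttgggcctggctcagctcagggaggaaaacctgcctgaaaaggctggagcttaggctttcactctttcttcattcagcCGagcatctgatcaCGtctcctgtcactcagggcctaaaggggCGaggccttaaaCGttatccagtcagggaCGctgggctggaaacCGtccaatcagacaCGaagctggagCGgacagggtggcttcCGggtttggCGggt
ZNF208, chr19:22010944-22011193, minus strand: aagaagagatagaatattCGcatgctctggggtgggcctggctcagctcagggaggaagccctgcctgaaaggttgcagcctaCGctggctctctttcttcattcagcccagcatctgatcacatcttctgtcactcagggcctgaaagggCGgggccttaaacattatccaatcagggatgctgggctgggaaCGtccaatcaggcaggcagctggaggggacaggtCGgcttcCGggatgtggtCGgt
Over these 250 bases ZNF208 and ZNF91 were 87.6% identical, with 7 CpG each. ZNF493 was 81.2% identical to ZNF208 and to ZNF91, 80.8% to ZNF492 and 80% to ZNF257, and held 9 CpG, against 13 in ZNF492 and 10 in ZNF257.

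A promoter was called open in a library when any annotated start site of the gene had a deposited peak within 1 kb upstream or downstream. A gene was called open in a line when both of its libraries had such a peak, and closed when neither had one. The lists held 101704 and 103715 peaks in GM12878, 52438 and 52137 in HEK293T, 127359 and 120344 in HFF1, and 78601 and 71241 in K562. The local background recovered from the lists, which is proportional to depth, was lowest in HEK293T at 0.465 and 0.466 reads, beside 1.71 to 2.43 elsewhere, so a missing peak in HEK293T rested on the least depth. The line labels were checked against marker genes. CD79A, CD79B and MS4A1 were open in GM12878 and in no other library, GATA1 and TAL1 in K562 alone, COL3A1 in HFF1 alone, and PAX2 and LHX1 in HEK293T alone, while EPOR was open in all 8 libraries and the fetal globin gene HBG1 was not open in K562. Nothing in the labels says that the 2 libraries of a line came from separate cultures, so the spread between them may be technical.

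Most zinc finger promoters were open in every line, and HFF1 had the most. Of the 240 members, 228 (95%) were open in HFF1, where 76.2% of all genes were open. In GM12878, 206 (85.8%) were open, beside 71.9% of all genes. In K562, 196 (81.7%) were open, beside 70.4% of all genes, and in HEK293T 185 (77.1%), beside 67.8%. The members thus stood above the background share in each of the lines, by an amount that was smallest in HEK293T.

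By single library, 229 and 228 members had a promoter peak in HFF1, 207 and 209 in GM12878, 202 and 197 in K562 and 192 and 189 in HEK293T. The lines did not overlap in these counts, but the lower K562 library and the higher HEK293T library differed by no more than the 2 K562 libraries did. A peak in 1 library only was seen for 11 members in HEK293T, 7 in K562, 4 in GM12878 and 1 in HFF1. Of the 231 members open in at least 1 line, HFF1 had 98.7% open, GM12878 89.2%, K562 84.8% and HEK293T 80.1%. Over the 16555 genes of the genome open in at least 1 line, the same shares were 91.9%, 86.7%, 84.9% and 81.8%.

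The 236 genes with ZNF names on other chromosomes were open in 87.3% of cases in GM12878, 87.7% in HEK293T, 93.2% in HFF1 and 89.8% in K562. Their shares in HEK293T and K562 were above those of the chromosome 19 members, and those in GM12878 and HFF1 were within 2 percentage points. The 1236 other genes of chromosome 19 were open less often than the members in every line, from 59.1% in HEK293T to 73.1% in K562. The 114 non-member genes inside the zinc finger clusters were open in 50% to 58.8% of cases. These differences between gene groups were not tested, since the members of a group are not replicates of a condition.

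**Figure D1:**
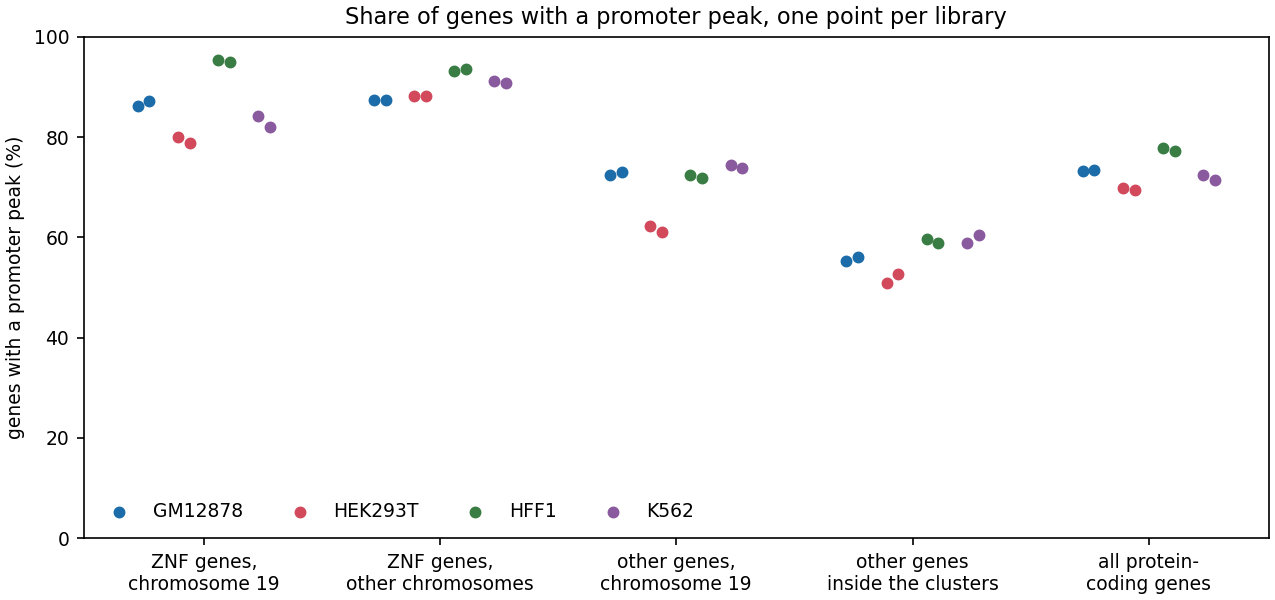
The y axis gives the share of genes with a promoter peak in percent and the x axis the gene group, with 1 point per library coloured by line. The members sit between 78.8% and 95.4%, above the other genes of chromosome 19 in all 4 lines, and HFF1 is highest among the members.

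When the recovered pileups and backgrounds of the deeper libraries were scaled to the background level of HEK293T, 203 members were open in GM12878, 226 in HFF1 and 186 in K562, beside 185 in HEK293T. The lists were not equal in length after this scaling, with 87347 and 87294 peaks left in GM12878, 87227 and 89070 in HFF1 and 47268 and 47038 in K562, beside 52438 and 52137 in HEK293T. The part of depth in the differences between lines was not tested further. The shares of all genes after scaling were 69.8%, 71.9%, 65.7% and 67.8% in GM12878, HFF1, K562 and HEK293T.

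Across lines, 166 members (69.2%) had a promoter peak in all 8 libraries, beside 59.7% of all genes. At the other end, 8 members (3.33%) had one in no library, beside 14.7% of all genes. Among ZNF genes on other chromosomes, 83.9% had one in all 8 libraries, above the share of the members, and 3.81% in none. For 23 members (9.58%) the 2 libraries of at least 1 line disagreed, beside 11% of all genes. For 43 (17.9%) the libraries of each line agreed and the lines differed, beside 14.6% of all genes. Both shares were near those of all genes, and among ZNF genes on other chromosomes they were 3.39% and 8.9%.

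Promoters open in a single line were few. In HFF1 only, 5 members were open (ZNF492, ZNF578, ZNF415, ZNF667 and ZNF135), beside 2.05% of all genes, which is close to the 2.08% of the members. In K562 only, 3 were open (ZNF556, ZNF257 and ZNF728), 1.25% of the members beside 1.12% of all genes. None was open in GM12878 only, beside 1.4% of all genes, and none in HEK293T only, beside 0.336%. The shares in HFF1 and K562 were near the background, and the counts in GM12878 and HEK293T are too small to be read against it. Scaled to the background level of HEK293T, 9 members (3.75%) were open in HFF1 only, beside 1.8% of all genes.

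The share of promoters closed in a single line was above that of all genes in HEK293T and K562 and near it in GM12878. In HEK293T only, 10 members (4.17%) were closed, beside 2.08% of all genes. They were ZNF433, ZNF253, ZNF93, ZNF486, ZNF626, ZNF726, ZNF528, ZNF600, ZNF347 and ZNF418. The other genes of chromosome 19 had a similar share closed in HEK293T only, 3.72%, as had non-member genes inside the clusters, 3.51%. Among ZNF genes on other chromosomes it was 0.847%. In K562 only, 9 members (3.75%) were closed, beside 1.72% of all genes, namely ZNF302, ZNF382, ZNF829, ZNF875, ZNF470, ZNF71, ZNF773, ZNF256 and ZNF606. The share closed in K562 only was 0.0809% in the other genes of chromosome 19 and 0.424% in ZNF genes on other chromosomes. In GM12878 only, 3 (1.25%) were closed, beside 1.33% (ZNF558, ZNF112 and ZNF285), and in HFF1 only none, beside 0.33%. Scaled to the background level of HEK293T, 6 members (2.5%) were closed in HEK293T only, beside 1.19% of all genes, and 13 (5.42%) in K562 only, beside 2.33%. Among the 182 members with a window of their own, 1 was closed in GM12878 only, 6 in K562 only and 10 in HEK293T only. An exact permutation test over all pairings of the 8 libraries cannot give a p below 0.0857 for a single gene, so no member was tested alone.

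The fold given for each peak is the authors' own ratio, which sets the pileup at the summit against the background nearby. It ranks peaks within a list and was not compared between lists. The promoter peak of ZNF492 had folds of 14.6 and 13.1 in the HFF1 libraries, and no peak was listed in the other 6. ZNF578 had 13.3 and 14.4 in HFF1, ZNF135 11.5 and 11.3, and ZNF415 9.84 and 9.46, each with no peak in the other lines. For comparison, the median fold of the open members was 12.8 and 12.6 in the HFF1 libraries. ZNF257 had folds of 13 and 10.7 in the K562 libraries, ZNF556 had 9.5 and 7.29, and no other library listed a peak for either. ZNF728 had 4.36 and 5.39 in K562, where the median of the members was 11.7 in both libraries. Its peaks were 150 and 201 bp wide, and ZNF728 had no promoter peak in any library after that scaling.

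The members closed in HEK293T only had a peak in all 6 other libraries. ZNF253 had folds of 13 and 14.7 in GM12878, 14.7 and 13.4 in HFF1 and 13.6 and 13.3 in K562, with no peak in either HEK293T library. ZNF600 had 18.4 and 16.4 in GM12878, 12 and 8.58 in HFF1 and 15.2 and 16.9 in K562, and none in HEK293T. Both had a peak in 6 libraries also after that scaling. ZNF93, whose protein is known to repress LINE-1 elements, had folds of 13.5 and 14.5 in GM12878, 11.2 and 11.7 in HFF1, 9.14 and 10.1 in K562 and no peak in HEK293T.

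In K562, the promoter of ZNF606 was closed in both libraries. Its folds were 16.8 and 16.8 in GM12878, 14.5 and 12 in HEK293T and 18 and 18 in HFF1. ZNF470 had 14.6 and 13 in GM12878, 17.5 and 14.3 in HEK293T and 14.6 and 16.1 in HFF1. ZNF829 had 12.9 and 17.2, 14.8 and 16.1, and 14.3 and 13.6 in GM12878, HEK293T and HFF1. Its window is shared with the divergent neighbour ZNF568, so a peak there cannot be given to 1 of the genes. Of the 9 members closed in K562 only, ZNF773 had the largest folds in GM12878, 21.4 and 23.3, and in HFF1, 22.2 and 21.6, with 13.1 and 10.8 in HEK293T.

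In GM12878, ZNF112, ZNF285 and their neighbour ZNF229 formed a run of closed promoters. ZNF112 had folds of 14.1 and 12.7 in HEK293T, 18.1 and 19.9 in HFF1 and 10.9 and 8.43 in K562. ZNF285 had 11.6 and 7.5, 15.1 and 15.8, and 11.8 and 12.1 in the same lines. ZNF229 had 14.5 and 16.2 in HFF1, 8.11 and 8.43 in K562 and none in HEK293T. ZNF558, a repressor known for its action on the mitophagy gene SPATA18, had 14.6 and 12.3 in HEK293T, 9.62 and 10.3 in HFF1 and 11.2 and 10.9 in K562. The windows of ZNF558 and ZNF285 overlap those of another gene.

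Where a zinc finger promoter was open, its peak ranked high in the list. The median percentile of the fold among all peaks of the library was 90.8 and 91 for members in GM12878, 85 and 85.2 in HEK293T, 94.3 and 93.5 in HFF1 and 93.8 and 93.6 in K562. Over the open promoters of all genes it was 72.9 and 73, 74.9 and 74.8, 77.2 and 77.7, and 80.5 and 79.9 in the same order. Open ZNF genes on other chromosomes were closer to the members, at 85.1 and 85.2, 82.5 and 84, 87.5 and 86.6, and 87.9 and 85.4. Open non-member genes inside the clusters had 84.9 and 81, 80.2 and 78.1, 89.2 and 91.4, and 87.2 and 87.4. The summit lay within 250 bp of an annotated start site for 93.4% to 95.2% of the open members, with a median offset of -42.5 to -34 bp, where a minus sign means before the start. Median peak width was 788 and 804 bp in GM12878, 487 and 447 bp in HEK293T, 932 and 908 bp in HFF1 and 692 and 684 bp in K562.

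The 5 members with the highest mean percentile were ZNF493, ZNF431, ZNF30, ZNF766 and ZNF17. ZNF493 had folds of 19.3 and 20.9 in GM12878, 19 and 17.1 in HEK293T, 16.3 and 16.6 in HFF1 and 13.9 and 14.5 in K562, at percentiles from 98.4 to 99.8. ZNF766 had percentiles of 94.9 to 99.9 over the 8 libraries and ZNF17 96.1 to 99.9. ZNF493 and ZNF431 lie in the same cluster as 6 of the 8 members without any peak.

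Members known from other work were described whatever their calls. ZNF274, which is known to bind the 3′ ends of zinc finger genes and to recruit SETDB1, was open in all 8 libraries with folds of 10.2 to 14.4. ZNF91, known as a repressor of SVA elements, was also open in all 8, with 18 and 17.9 in GM12878, 17.5 and 15.3 in HEK293T, 15.9 and 12.2 in HFF1 and 10.5 and 9.45 in K562. ZNF675, ZNF649, ZNF420, ZNF582 and ZNF611 were open in all 8 libraries. ZNF331, an imprinted gene, was open in all 8 when any start site was allowed, and in 6 at its canonical start site.

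Several members have been studied as genes methylated at their promoters in tumours, and these were split. ZNF582 was open throughout, with folds of 13.3 to 20.1. ZNF154 had 8.7 and 10.6 in GM12878 and 12.2 and 10.7 in HFF1, and no peak in HEK293T or K562. ZNF132 showed the same calls, with 14.1 and 13 in GM12878 and 14.5 and 15.1 in HFF1. ZNF667 was open in HFF1 alone (8.28 and 8.75). ZNF382 was closed in K562 alone, and its folds elsewhere were 8.09 to 11.6. The window where ZNF382 had peaks overlaps a window of ZNF529 with the same calls. A peak there cannot be given to 1 of the genes. ZNF671 had a peak in 7 libraries, missing in 1 of HEK293T, where the other library gave 6.14. DNA methylation was not measured here.

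Along the chromosome, members less than 500 kb apart were joined, and groups of 5 or more were called clusters. This gave 10 clusters with 228 members, numbered from the end of the short arm, and left 12 members outside. Cluster 4, at chr19:19668796-24129968 on hg38, held 37 members over 4.46 Mb next to the centromere and had the lowest share of open members of all clusters in each line. In it 24 members (64.9%) were open in GM12878, 18 (48.6%) in HEK293T, 29 (78.4%) in HFF1 and 25 (67.6%) in K562. Peaks in all 8 libraries were seen for 15 of its members (40.5%), beside 69.2% of the whole set, and 6 of the 8 members without any peak lay in it. Of the 11 members closed in HFF1, 8 were in cluster 4.

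The other clusters differed by line. In cluster 6 (chr19:36182276-37817300, 24 members) every member was open in HEK293T and in HFF1, 23 in GM12878 and 19 (79.2%) in K562. In cluster 7 (chr19:43525497-44500524, 23 members) all were open in HFF1 and K562, 22 in HEK293T and 20 in GM12878. In cluster 10 (chr19:57191500-58481230, 41 members) 41 were open in HFF1, 40 in GM12878, 35 in HEK293T and 33 in K562. In cluster 9 (chr19:55476617-56671783, 16 members) K562 had the fewest, 11 (68.8%), beside 15 in HFF1. In cluster 3 (chr19:11483427-12640098, 25 members) HEK293T had the fewest, 17 (68%), beside 25 in HFF1. K562 was lowest in clusters 5, 6, 9 and 10, HEK293T in clusters 3, 4 and 8, and GM12878 in clusters 2 and 7. Some of these orders rested on very few members. In cluster 5, 4 of 5 members were open in K562 and 5 in each other line. In cluster 2, 10 were open in GM12878 and 11 in HEK293T, and in cluster 9, 11 in K562 and 12 in HEK293T. In cluster 8, 28 of 39 were open in HEK293T and 32 in K562.

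**Figure D2:**
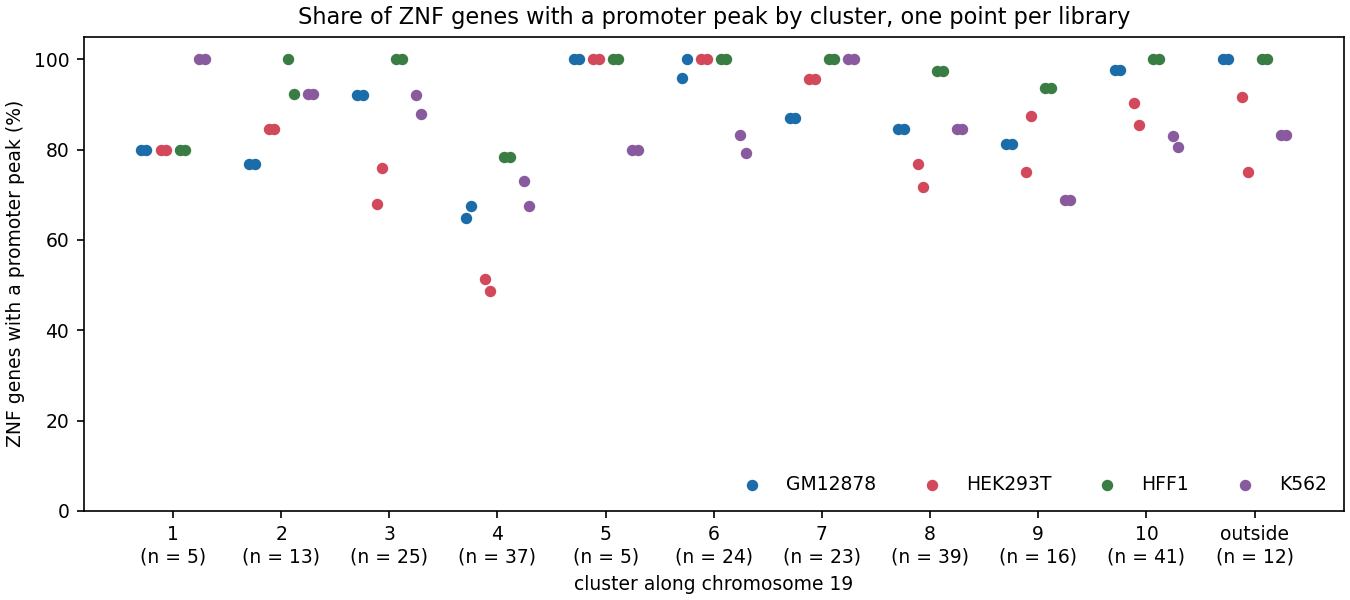
The y axis gives the share of members with a promoter peak in percent and the x axis the cluster, with its number of members, 1 point per library. Cluster 4 has the lowest point, 48.6% in HEK293T, and the line with the fewest open promoters changes from cluster to cluster.

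Some of the closed promoters were neighbours. Runs of 3 or more successive members held 13 of the 30 closed in GM12878, 24 of 44 in HEK293T, 8 of 11 in HFF1 and 14 of 37 in K562, so that in GM12878 and K562 most closed members lay outside such runs. How often such runs would arise by chance was not tested. The longest run covered 10 successive members, ZNF208, ZNF257, ZNF676, ZNF729, ZNF98, ZNF492, ZNF99, ZNF723, ZNF728 and ZNF730, at chr19:21932958-23147221 in cluster 4. All 10 were closed in both GM12878 and HEK293T. In HFF1 the run was broken by ZNF492 and ended before ZNF730, which had folds of 10.1 and 10, leaving runs of 5 and 3 members. In K562 the open members in it were ZNF257, ZNF728 and ZNF730, the last with folds of 5.61 and 6.74, leaving a run of 6. ZNF43, just before the run, had no peak in 1 GM12878 library and a fold of 6.22 in the other, with folds of 12 to 15.3 in the remaining 6 libraries. ZNF724 and ZNF91, just after it, had a peak in all 8.

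In K562 another run held 5 members of cluster 9, ZNF667, ZNF471, ZNF470, ZNF71 and ZNF835, at chr19:56439325-56671783. ZNF71 had folds of 15.5 and 14.9 in GM12878, 11 and 13.5 in HEK293T and 12.7 and 12.2 in HFF1. ZNF471 had 13.4 and 13.9 in HEK293T, 10.9 and 11.7 in HFF1 and no peak in GM12878. ZNF667 was open in HFF1 alone, and ZNF835 had no peak in any library. A run of 3 in cluster 10, ZNF256, ZNF606 and ZNF135, was also closed in K562, and of these ZNF135 was closed in GM12878 and HEK293T as well. HEK293T had runs of 4 and 3 elsewhere in cluster 4, from ZNF90 to ZNF626 and from ZNF506 to ZNF93, and runs of 4 and 3 in cluster 8, from ZNF415 to ZNF677 and from ZNF528 to ZNF578. Copy number or rearrangement of chromosome 19 in these lines was not measured, and its part in the runs was not tested.

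**Figure D3:**
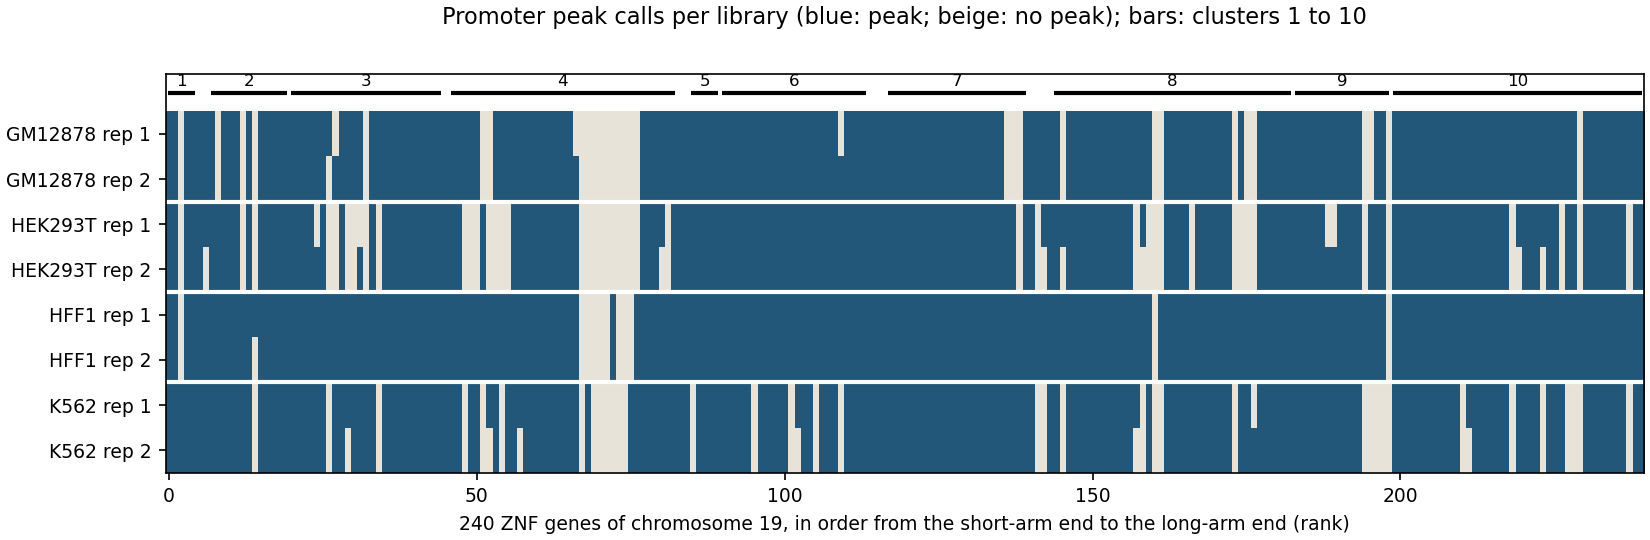
Rows are the 8 libraries and columns the 240 members in chromosome order, with blue for a promoter peak and beige for none, and black bars mark the 10 clusters. The beige block in cluster 4 is the run of 10 members closed in GM12878 and HEK293T. The K562 rows also show runs in clusters 9 and 10, in which some members are closed in other lines too.

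Promoter sequence was described next. The CpG ratio, observed over expected CpG in the 1 kb around the canonical start site, had a median of 0.72 in the 166 members open in all 8 libraries, 0.671 in the 66 open in some and 0.559 in the 8 open in none. Over all genes the medians of the same classes were 0.787, 0.571 and 0.24. The members without a peak thus had more CpG than genes without a peak in general. Their values ran from 0.204 in ZNF676 to 0.746 in ZNF534, within the range of 0.208 to 1 of the members open in all libraries apart from ZNF676. The ratio was taken at the canonical start site, while the calls allowed any start site. At the canonical site alone, 159 members were open in all 8 libraries. The 166 thus include some whose measured site lacked a peak in at least 1 library. Among members, cluster 4 had a median of 0.531, the lowest of the clusters.

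**Figure D4:**
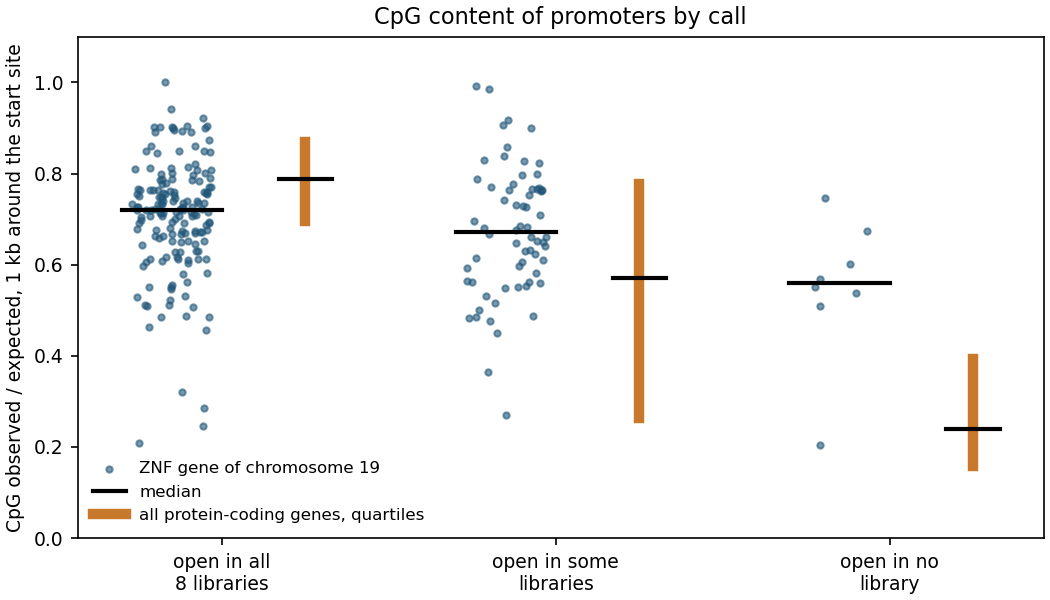
The y axis gives the CpG ratio of the 1 kb around the start site and the x axis the call class, with 1 point per member, a black line at the median and an orange bar for the quartiles of all protein-coding genes. The 8 members without a peak have a median of 0.559, above the 0.24 of all genes in that class. They overlap the members that were open at any start site, while the ratio is that of the canonical start site.

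Cluster 4 was also the cluster with the most alike promoters. Among its 29 members with a RefSeq promoter, the median identity of 406 pairs over the 250 bases before the start site was 78.4%, and 27 had another promoter at least 70% identical. The medians of the other clusters ran from 12.8% in cluster 7 to 54.8% in cluster 1. In the 24 members with a promoter at least 70% identical to that of ZNF493, itself included, CpG counts were 6 to 11 in the 10 open in all libraries, 6 to 13 in the 12 open in some and 7 and 10 in the 2 open in none. The classes overlapped in CpG count, as the printed pair of ZNF208 and ZNF91 shows. How reads that match several copies were handled is not given in the sources used here. Of the 100-base words in the promoter windows, those found again on chromosome 19 made up 0% in 7 of the 8 members without a peak and 2% in ZNF208. The highest share was 15.7%, in ZNF419, which was open in all 8 libraries, and in ZNF773, which was closed in both K562 libraries. After scaling, ZNF419 had a peak in 7 libraries. The part of repeated sequence in these calls was not tested.

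Short consensus words were counted on both strands in the 250 bases before the start site of the 210 members with a RefSeq promoter, beside 15316 genes. The CCAAT word, the core of the site of NF-Y, was found in 106 members (50.5%) and in 34.8% of all promoters. It was in all 29 promoters of cluster 4 and in 22 of 24 in cluster 3 (91.7%), but in 2 of 23 in cluster 6 (8.7%) and 4 of 19 in cluster 7 (21.1%). The core consensus of ZNF143, a word of 12 letters with 2 free positions that was searched as a whole, was found in 30 members (14.3%) and in 2.83% of all promoters. It was in 10 of 19 promoters in cluster 7 (52.6%), 9 of 23 in cluster 6 (39.1%), 4 of 14 in cluster 9 (28.6%) and none in clusters 3, 4 and 5. In cluster 5 the CCAAT word was in 2 of 4 promoters (50%), and in cluster 9 in 5 of 14 (35.7%). The CCAAT and ZNF143 words were in 100% and 20% of the 5 promoters of cluster 1, 33.3% and 8.33% in cluster 2, 25% and 3.12% in cluster 8 and 63.2% and 5.26% in cluster 10. The words do not overlap in their letters, and neither says that a factor was bound. The word TATAAA was in 1.9% of members and 9.24% of all promoters, GGGCGG in 66.7% and 56.7%, and the NRF1 consensus in 1.9% and 1.47%.
The promoter of ZNF112 is shown for cluster 7, with capitals for the ZNF143 word read on the other strand.
ZNF112, chr19:44356705-44356954, minus strand: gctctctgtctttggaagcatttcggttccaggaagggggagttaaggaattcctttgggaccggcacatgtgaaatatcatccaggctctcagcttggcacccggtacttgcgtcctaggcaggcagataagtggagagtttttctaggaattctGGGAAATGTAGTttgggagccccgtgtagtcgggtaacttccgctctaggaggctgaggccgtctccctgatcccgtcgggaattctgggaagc
The match GGGAAATGTAGT begins 94 bases before the RefSeq start site, in the window that was closed in GM12878 and open in the other 3 lines. By call, the ZNF143 word was in 24 of 149 members open in all libraries (16.1%), 5 of 57 open in some (8.77%) and 1 of 4 open in none. The CCAAT word was in 47.7%, 57.9% and 50% of the same classes.

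Many members have more than 1 start site, and 151 had start-site windows that did not touch. In 29 of these at least 2 windows were open in some line, and in 20 the windows differed in at least 1 library. In no member was 1 window open in a line where the other was closed and the reverse in another line. ZNF565 had a peak in all 8 libraries at its canonical window and in HFF1 alone at the upstream one (chr19:36245257-36247257). ZNF573 showed the same calls, with its upstream window chr19:37816221-37818300 open in HFF1 alone. ZNF540 had a second window open in HFF1 and K562, and ZNF611 one open in K562 alone (chr19:52723664-52725664), beside a main window open in all 8.

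ZNF568, the human counterpart of a mouse repressor of a placental Igf2 transcript, was open in GM12878, HEK293T and HFF1 at the window it shares with ZNF829. In K562 that window had no peak, and 1 of the 2 libraries had a peak of fold 5.3 at the downstream window chr19:36972163-36974561. ZNF875 had 5 windows, of which 2 were open in GM12878, HEK293T and HFF1 and closed in K562, 2 were open in HFF1 alone and 1 had no peak. Its RefSeq start site lies in a window open in HFF1 alone, and the 250 bases before that start are shown with CpG in capitals.
ZNF875, chr19:37312587-37312836, plus strand: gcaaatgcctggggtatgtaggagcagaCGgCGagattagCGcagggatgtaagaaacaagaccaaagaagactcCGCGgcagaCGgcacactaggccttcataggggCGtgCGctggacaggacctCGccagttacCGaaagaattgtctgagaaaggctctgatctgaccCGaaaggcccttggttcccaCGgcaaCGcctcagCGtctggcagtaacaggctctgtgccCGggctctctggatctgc
They held 15 CpG and a GC content of 58%. In K562 all 5 windows lacked a peak, so the K562 call of ZNF875 did not turn on the choice of start site.

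Neighbouring members were compared by the identity of their coding sequences. Of 218 neighbouring pairs within clusters, 128 had the same calls in all libraries, 72 differed in at least 1 line and 18 differed only in a line whose libraries disagreed. The windows of 22 members overlap those of another member. A peak in such an overlap counts for both genes, so equal calls there are not separate observations. Among the 50 pairs at least 80% identical, over alignments that covered at least 80% of the longer sequence, 28 had the same calls and 18 differed. Among the 39 pairs 70% to 80% identical, 28 had the same calls and 10 differed. Among the 26 under 70%, 13 had the same calls and 11 differed. ZNF587 and ZNF417 were 99.1% identical, and ZNF799 and ZNF443 96.5%, and all 4 genes were open in all 8 libraries. ZNF98 and ZNF492 were 99% identical, yet ZNF492 was open in HFF1 and ZNF98 in no library. ZNF419 and ZNF773 were 96% identical, and in K562 ZNF419 had folds of 7.17 and 6.4 where ZNF773 had no peak. ZNF611 and ZNF600 were 94.4% identical, and in HEK293T ZNF611 had folds of 11.7 and 13 where ZNF600 had none. Close relatives were thus found on both sides, with equal and with different calls.

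Between the promoters, the 10 clusters pooled held fewer peaks per Mb than the rest of chromosome 19. Peaks outside all promoter windows numbered 11.1 and 11.8 per Mb in the 10 clusters in GM12878, 4.16 and 4.37 in HEK293T, 13.2 and 11.8 in HFF1 and 11.1 and 9.78 in K562. The rest of chromosome 19 had 44.5 and 45.3, 13.7 and 12.9, 43.2 and 40.5, and 37.4 and 33.8 per Mb in the same order. All autosomes and X had 26.3 and 26.9, 11.4 and 11.2, 33.5 and 31.3, and 19.2 and 17. The clusters pooled lay below both in all 8 libraries. Single clusters did not all do so. Cluster 1, of 0.125 Mb, had 40 per Mb in both GM12878 libraries, and cluster 3 had 26.8 and 27.7 there, above the genome. Cluster 9 was above the genome in HEK293T (13.4 and 12.6) and in K562 (23.4 in both), and cluster 5, of 0.287 Mb, in K562 (20.9 and 17.4). Cluster 4, the longest of the 10, had 3.81 and 4.03 per Mb in GM12878, 2.24 in both HEK293T libraries, 6.28 and 5.83 in HFF1 and 5.16 in both of K562. Lengths are those of the assembly, 14.4 Mb for the clusters and 44.2 Mb for the rest, with unsequenced gaps counted.

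**Figure D5:**
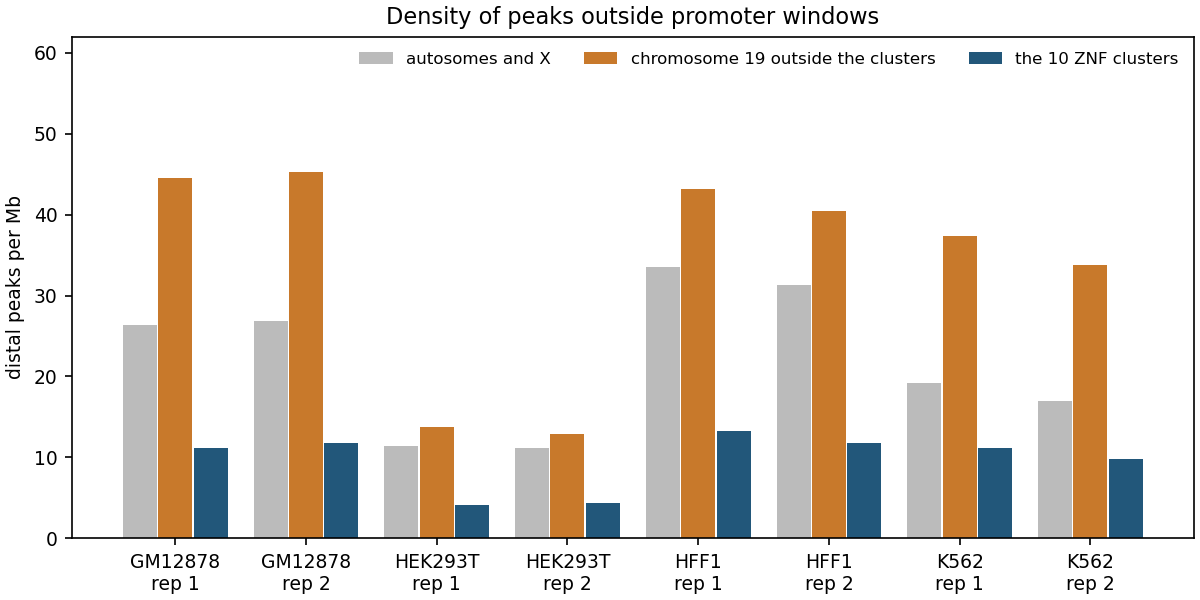
The y axis gives peaks outside promoter windows per Mb and the x axis the library, with bars for the autosomes and X, chromosome 19 outside the clusters and the 10 clusters pooled. The cluster bars run from 4.16 to 13.2 per Mb and are the lowest of the 3 in every library.

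Genes that act with KRAB zinc finger proteins were open in nearly all libraries. Of 24 genes listed for this pathway, among them TRIM28, SETDB1, ATF7IP, the HP1 genes CBX1, CBX3 and CBX5, the HUSH genes TASOR, MPHOSPH8 and PPHLN1, and the DNA methyltransferases, 23 had a promoter peak in all 8 libraries and none was closed in a line. The exception was EHMT1, a histone methyltransferase gene, with no peak in 1 HEK293T library, so it was not called open in that line. Of all genes, 59.7% had a promoter peak in all 8 libraries. TRIM28, itself on chromosome 19, had folds of 10.9 and 10.3 in GM12878, 12.9 and 14.7 in HEK293T, 8.58 and 9.74 in HFF1 and 9.86 and 10 in K562. ATAC-seq gives no level of any protein, and the part of these genes in the calls of zinc finger promoters was not tested.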

How the data were processed

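Peak lists were analysed for 8 human ATAC-seq libraries. Per the labels' protocols, nuclei were isolated in Omni-ATAC buffer and tagmented, about 20000 were sorted, and fragments of 200 to 700 bp were kept. Per the submitters' processing notes, cutadapt 3.2, Bowtie2 2.4.2, Picard and MACS2 2.2.7.1 were used, with hg38 among the builds. Read shifting, duplicate removal and the treatment of reads with several matches are not given in the sources used here.

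The deposited lists give, for each peak and library, a fold (a ratio to local background), p-values and q-values as −log10, and a score derived from the q-value. The lowest deposited −log10 q was 2 to 2.05, which is a q threshold of 0.01. Depth is not listed, so whole-number pileups and local backgrounds were recovered from fold and −log10 p for 100% of peaks, within 0.01. The background level is the lowest common background of a library. PCR reads carry no molecular identifiers, so no counting interval was computed.

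Peaks were overlapped with windows of 1 kb on either side of GENCODE release 44 start sites, on the GRCh38 genome. Where several peaks met a window, the one of highest fold was described. Promoter sequences came from RefSeq on GRCh38 and matched 210 of 240 members. ZNF253 had no entry and none is printed. Some of the marker genes checked are not reported here. Coding identity replaced the planned protein identity, and zinc finger numbers and KRAB domains are not analysed here. Python 3.11.15, pandas 2.3.3, Biopython 1.88 and pysam 0.24.0 were used, and the scripts were tested on simulated data.

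The members, the lists and the tests were chosen with earlier results of these data known. Named members were up to 4 open and up to 4 closed in each line alone, 5 with the highest peaks, up to 6 without a peak, 16 known from the literature, 6 with differing start sites and 6 neighbouring pairs, and cluster and run members named beside them were chosen after their values were seen. Alternatives were a window of 500 bp or 2 kb, the canonical start site, the summit in the window, a −log10 q of 5 or more, the 50000 strongest peaks, depth scaled to HEK293T, unshared windows, and each library left out. Leaving out both HEK293T libraries was added after seeing the data.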

Additional observations from a re-analysis of the deposited data

How the results depend on the processing

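Depth is 1 limit of these calls. The HEK293T libraries had the lowest background level, and a closed promoter there may be a peak that was not detectable at this depth. Calls are yes or no, so a peak just under the threshold counts as closed, and 58 of the 240 members share a window with another gene. Of 112 alternative values of the counts by line and pattern, other than leaving out a library, all but 7 were within 1.5 times the reported count. The counts open in GM12878 only, open in HEK293T only and closed in HFF1 only were 0. Where they stayed 0, as they mostly did, this was taken as within the bound. Counts with unshared windows came from 182 members and were set against those of 240 without rescaling. With pileups scaled to the background level of HEK293T, 6 members were closed in HEK293T only and 9 were open in HFF1 only. With the 50000 strongest peaks of each library, 6 were closed in HEK293T only, 8 open in HFF1 only, 1 open in GM12878 only and 1 closed in HFF1 only. With unshared windows only, which leaves 182 members, 1 was closed in GM12878 only, 6 in K562 only and 10 in HEK293T only. Leaving out each library in turn gave 10 to 14 members closed in HEK293T only and 166 to 170 open in all libraries used. Without both HEK293T libraries, 183 members were open in the 6 others and 8 in none. Of 378 values of the 54 named members under 7 settings, 370 had the same calls, and the others belonged to ZNF728, ZNF331, ZNF568 and ZNF419. Cluster 4 had 14 to 16 members open in all libraries under every alternative run for it. The density of distal peaks in the clusters was 0.234 to 0.324 of that in the rest of chromosome 19 over the lines and settings run. Joining members over 250 kb gave 12 clusters and over 1 Mb 9. No paired analysis was possible because the counts come from no test, and the replicate numbers of different lines mark no shared source in the labels.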

Other observations

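Peaks in the gene body outside promoter windows were found in 39 and 41 of the 240 members in the GM12878 libraries (16.2% and 17.1%), 12 and 13 in HEK293T (5% and 5.42%), 28 and 28 in HFF1 (11.7% in both) and 20 and 20 in K562 (8.33% in both). Over all protein-coding genes the shares were 52.7% and 53.2%, 33.4% and 32.9%, 52.3% and 51%, and 47% and 44.4% in the same order. The median gene length was 25.5 kb for members and 27.5 kb for all genes. The difference was not tested. ZNF536, a gene of 488696 bp outside the clusters that encodes a neuronal repressor, held 17 and 11 such peaks in HFF1, 6 and 4 in K562, 5 and 5 in HEK293T and 3 and 4 in GM12878. ZNF627, in cluster 3, held 5 and 6 in GM12878, 4 and 3 in HFF1, 4 and 3 in K562 and 0 and 1 in HEK293T. The final exon, which usually encodes the zinc fingers, had a median length of 3354 bp. A summit in it was seen for 5 members in any library (ZNF555, ZNF442, ZNF575, ZNF888 and ZNF497) and for none in all 8 libraries. ZNF555 and ZNF442 had one in both GM12878 libraries and ZNF497 in both HFF1 libraries. These genes were named after their values were seen.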
